A study of Vitis vinifera with 6 samples.

Results

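The SEPALLATA genes were followed in young grapevine seeds and seed traces: VviSEP1 (VIT_14s0083g01050, chromosome 14), VviSEP2 (VIT_17s0000g05000, chromosome 17) and VviSEP3 (VIT_01s0010g03900, chromosome 1). They were picked out by identifier, and are 3 of the 29536 genes read from the table. RNA came from the seed content of berries borne by F1 hybrids of Red Globe and Crimson Seedless. The sdi+ class held the seedless hybrids 669-60, 670-17 and 675-17 (replicates 1, 2 and 3). Their fruit contains stenospermocarpic seed traces, which are seeds that begin to form and then cease growth. The sdi- class held the seeded hybrids 665-17, 671-19 and 677-06 (replicates 1, 2 and 3), from which seeds were taken. All plants shared the cross, the field, the rootstock 1103 Paulsen and the management. Berries measured 10 to 12 mm and were picked 4 weeks after anthesis, and the content of 12 to 50 fruits from at least 2 clusters was pooled per extraction. A hybrid was sequenced once, so variation inside a class mixes differences among plants with technical error. F1 progeny segregate across the genome, and the seedlessness locus and other loci cannot be told apart in a comparison of 3 plants with 3.

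SEPALLATA genes encode MADS-box transcription factors of the E class. Their proteins are known, mainly from Arabidopsis, to bridge other MADS-box proteins into the complexes that specify floral organs and ovules, and different SEPALLATA proteins can in part stand in for each other. In ovules and young seeds the partners include proteins of the AGAMOUS clade such as AGL11, whose gene maps to the grapevine seedlessness locus. The comparison of the classes asks whether the supply of these bridging factors, or its make-up, differed between traces and seeds. Grapevine has a further SEPALLATA gene, SEP4, which was not a member and is not part of the sums given here.

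Levels are in RPKM, reads divided by gene-model length and by a library total, so levels of different genes can be set side by side. Triplets of values follow the order of replicates 1, 2 and 3 throughout. The steps of the RPKM values gave library totals of 6576771 to 9267652 reads, and 3 reads on a model of 1 kb were worth 0.324 to 0.456 RPKM. Trace replicate 1 stood apart. Over the tested genes its log2 values correlated at 0.847 and 0.862 with the other traces, which correlated at 0.944 with each other, and at 0.728 to 0.743 with the seeds. The main results are therefore also given without it. The seed and ovule markers ANR, LAR1, MYBPA1 and AGL11 were all detected in the 6 libraries, at 22.1 RPKM or more. The berry skin colour genes UFGT and MYBA1 reached at most 0.372 and 0.173 RPKM. In berries this young neither set of values can show whether skin or flesh was present, which was not tested.

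The SEPALLATA genes did not move together. SEP1 was 4.81-fold higher in seeds than in traces, SEP2 was 3.23-fold higher in traces than in seeds, and SEP3, the most abundant of the 3, did not pass the test. All 3 were above the filter of 1 RPKM in 3 or more libraries. At an adjusted p under 0.05 in limma, 2 of the 3 members were called, where 12.3% of the 18749 tested genes were called.

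SEP1, named MADS2 in RefSeq, stood at 11.1, 20.05 and 17.3 RPKM in traces. In seeds it stood at 74.4, 88.7 and 70.4 RPKM. Every trace was far below every seed, and the lowest trace was replicate 1. Classes failed to overlap with traces lower for 20.5% of tested genes, and in either direction for 39.5%. Class means were 16.2 ± 4.57 RPKM for traces and 77.8 ± 9.66 RPKM for seeds (SD, n = 3 each).

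The log2 change of SEP1 (traces over seeds, from RPKM + 1) was -2.23 ± 0.23 (SE), with a 95% interval of -2.78 to -1.68 and an adjusted p of 0.00585 in limma. Falls were called for 5.1% of tested genes, and 97 of all tested genes, called or not, had a lower log2 change. Leaving out trace replicate 1 gave -2.0 (limma, adjusted p = 0.00264, with 0.00136 to 0.0348 over the alternatives). Fewer cells of a type and less RNA per cell cannot be told apart in bulk samples. The summed seed and ovule markers had 340.0, 580.4 and 529.6 RPKM in traces and 1013, 1121 and 1272 RPKM in seeds. Each of the 4 was lower in every trace than in every seed, as were 20.5% of tested genes. ANR, LAR1 and MYBPA1 were called and AGL11 was not (limma, adjusted p = 0.0267, 0.0309, 0.0179 and 0.161). The part of these markers in the fall of SEP1 was not tested.

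SEP2 ran the other way and was the scarcest of the SEPALLATA genes in seeds. Its traces had 15.3, 11.1 and 10.2 RPKM and its seeds 3.98, 3.18 and 4.15 RPKM. Every trace was above every seed, as for 19% of tested genes, and the highest trace was replicate 1. Class means were 12.2 ± 2.73 RPKM for traces and 3.77 ± 0.518 RPKM for seeds (SD, n = 3 each). The log2 change was 1.45 ± 0.21 (SE), with a 95% interval of 0.95 to 1.96 and an adjusted p of 0.0121 in limma. Such rises were called for 7.18% of tested genes, and 1382 of all tested genes, called or not, had a higher log2 change.

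The call on SEP2 lay close to the threshold when a seed library was left out. It held without seed replicate 1, at a log2 change of 1.49 (limma, adjusted p = 0.0484). It also held without trace replicate 1, at a log2 change of 1.29 (limma, adjusted p = 0.0113). It was lost at 1.36 without seed replicate 2 and at 1.51 without seed replicate 3 (limma, adjusted p = 0.0589 and 0.0518). Calls over the whole table also dropped, from 2303 to 672, 429 and 449 without seed replicate 1, 2 and 3. The level of SEP2 in seeds came from 38, 36 and 38 reads, and in traces from 134, 101 and 82 reads. Exact Poisson 95% limits ran from 2.22 to 5.69 RPKM over the seeds and from 8.11 to 18.1 RPKM over the traces, so the limits of the classes did not meet. They cover counting error only and leave out differences among plants. PCR copies are not independent molecules, so even for counting error the limits may be too narrow.

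SEP3, named MADS4 in RefSeq, was high in both classes. Traces had 161.6, 129.3 and 106.4 RPKM, and seeds had 112.9, 131.1 and 115.5 RPKM. Both the highest and the lowest value belonged to traces, with the seeds in between. Class means were 132.5 ± 27.7 RPKM for traces and 119.9 ± 9.83 RPKM for seeds (SD, n = 3 each). The log2 change of 0.13 was not called (limma, adjusted p = 0.679, with 0.342 to 0.93 over the alternatives). Its 95% interval of -0.32 to 0.57 includes modest changes in either direction, and without trace replicate 1 the value was -0.03 (limma, adjusted p = 0.919). LOC104880622 lies within the span of MADS4 in the reference assembly, and with no strand setting given in the sources used here, reads of the pair may not be fully separated.

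**Figure D1:**
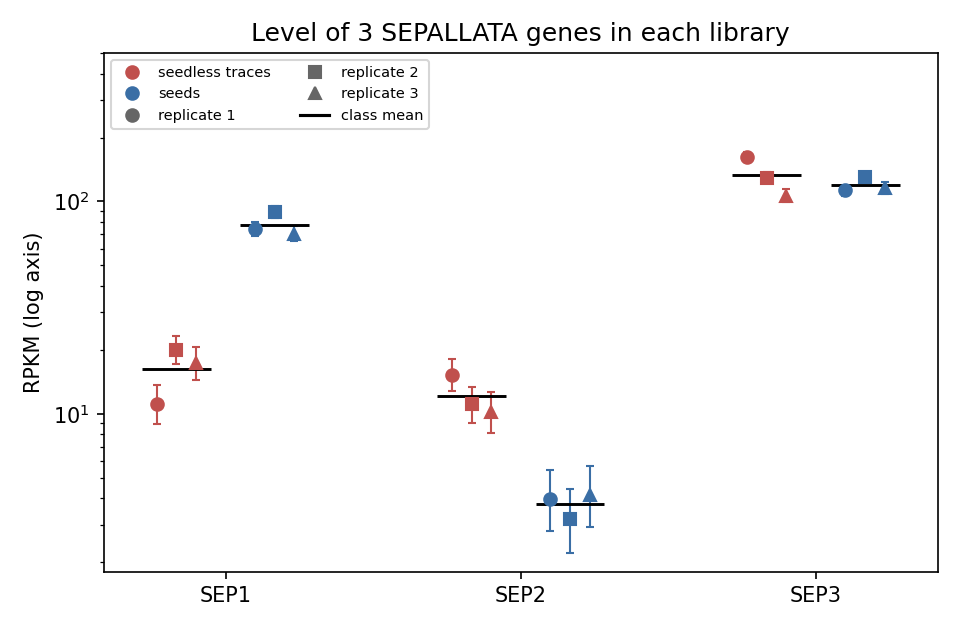
RPKM (log axis) of SEP1, SEP2 and SEP3 in the 3 seedless trace and 3 seed libraries; bars on the points are exact Poisson 95% intervals (counting error only) and black lines are class means. SEP1 traces lie at 11.1 to 20.05 RPKM below seeds at 70.4 to 88.7, SEP2 traces at 10.2 to 15.3 above seeds at 3.18 to 4.15, and the SEP3 classes overlap.

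The scatter inside a class changed with the library left out. Relative to the class mean, the SD was 28.2% in traces and 12.4% in seeds for SEP1. For SEP2 it was 22.4% and 13.8%, and for SEP3 20.9% and 8.2%. Without trace replicate 1, a setting added after the values were seen, the other 2 traces gave 10.3% for SEP1, 5.73% for SEP2 and 13.7% for SEP3. Without trace replicate 2 the values were 30.7%, 28.3% and 29.1%, and without trace replicate 3 they were 40.4%, 22.7% and 15.7%. Without seed replicate 2 the other 2 seeds gave 3.94%, 2.93% and 1.63% in the same order. Without seed replicate 1 the values were 16.3%, 18.7% and 8.92%, and without seed replicate 3 they were 12.4%, 15.8% and 10.5%. Dropping the most extreme of 3 values lowers the SD in any case, so these values do not single out a library. Trace replicate 1 held the lowest SEP1 level and the highest SEP2 and SEP3 levels of its class.

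Ranked by RPKM among all 29536 genes of a library, SEP3 was within the top 2.07% to 3.61% everywhere. SEP1 was at 5.16% to 6.68% from the top in seeds and at 23.3% to 34.8% in traces. SEP2 was at 28.6% to 35.5% in traces and at 47.6% to 50.4% in seeds. The ranking counts all rows, of which 24536 were above 0 in any library, so SEP2 in seeds ranked lower among detected genes. SEP3 drew 742 to 1288 reads per library, and SEP1 drew 588 to 917 in seeds and 89 to 167 in traces.

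The order of the copies was not the same in the classes. In seeds SEP3 was above SEP1 and SEP1 above SEP2 in 3 of 3 libraries. In traces SEP3 again led in 3 of 3, but the next in order, SEP1 and SEP2, overlapped. There SEP1 was above SEP2 in 2 of 3 libraries, replicate 1 being the exception.

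The summed level of the 3 copies was 188.1, 160.4 and 133.9 RPKM in traces. In seeds it was 191.3, 223.0 and 190.1 RPKM. The traces lay below the seeds, with trace replicate 1 close to the lowest seed. Class means were 160.8 ± 27.05 RPKM for traces and 201.5 ± 18.69 RPKM for seeds (SD, n = 3 each). To the difference of -40.65 RPKM, SEP1 contributed -61.7, SEP2 8.41 and SEP3 12.6 RPKM. A two-sided exact permutation test gave p = 0.1, the smallest that 3 against 3 allows. After quantile normalization the difference was -28.6 RPKM (exact p = 0.2). Without trace replicate 1, 2 or 3 it was -54.3, -40.5 and -27.2 RPKM (exact p = 0.1, 0.1 and 0.2). Without seed replicate 1, 2 or 3 it was -45.7, -29.9 and -46.4 RPKM (exact p = 0.2 each).

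The classes did not overlap in the make-up of this pool. Single genes failed to overlap, in either direction, for 39.5% of those tested, and shares within other gene groups were not computed. SEP1 held 5.92%, 12.5% and 12.9% of the summed SEP RPKM in traces and 38.9%, 39.8% and 37.0% in seeds. The seeds lay within a narrow range, far above the traces. SEP2 held 8.13%, 6.89% and 7.61% in traces and 2.08%, 1.42% and 2.18% in seeds. SEP3 held 85.9%, 80.6% and 79.5% in traces and 59.0%, 58.8% and 60.8% in seeds. SEP3 was thus the larger part of the pool in every library, and more so in each trace than in each seed. The 3 shares add up to the whole and are not independent of each other.

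The mean share of SEP1 was 10.4% ± 3.93 in traces and 38.6% ± 1.41 in seeds (SD, n = 3 each). For SEP2 it was 7.54% ± 0.622 and 1.89% ± 0.411, and for SEP3 82.0% ± 3.46 and 59.5% ± 1.1. The differences of -28.1, 5.65 and 22.5 percentage points each had a two-sided exact permutation p of 0.1, the smallest possible here. Without trace replicate 1 they were -25.9, 5.36 and 20.5 percentage points (exact p = 0.1 each). A share compares genes within a library, so the library total does not enter it, whereas gene-model length does. Reads not divided by length gave -28.9, 6.42 and 22.4 percentage points.

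**Figure D2:**
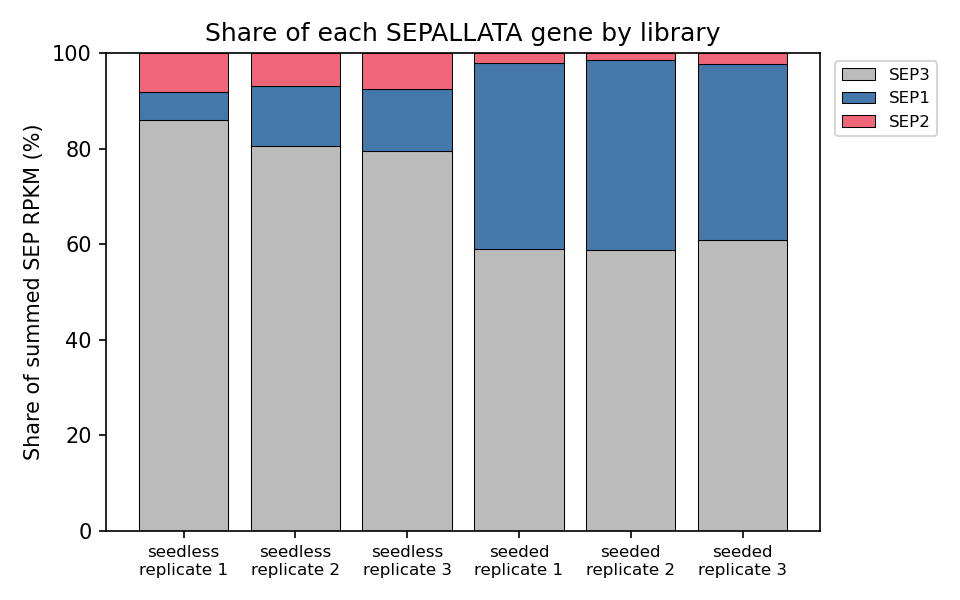
Share (%) of SEP3, SEP1 and SEP2 in the summed RPKM of the 3 genes, 1 stacked bar per library. SEP1 takes 37.0% to 39.8% in seeds and 5.92% to 12.9% in traces, and SEP2 takes 1.42% to 2.18% and 6.89% to 8.13%.

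Ratios of copies within a library describe how their changes compared with each other. With 1 RPKM added to each, the log2 ratio of SEP2 to SEP1 was 0.42, -0.80 and -0.71 in traces. In seeds it was -3.92, -4.43 and -3.79. SEP2 exceeded SEP1 in trace replicate 1 and in no other library. Mean ratios were -0.36 ± 0.68 (traces) and -4.05 ± 0.33 (seeds; SD, n = 3 each). They differed by 3.68, or 3.29 without trace replicate 1.

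The log2 ratio of SEP3 to SEP1 averaged 2.98 ± 0.67 in traces and 0.62 ± 0.08 in seeds (SD, n = 3 each). The difference was 2.36, or 1.97 without trace replicate 1. The log2 ratio of SEP3 to SEP2 averaged 3.34 ± 0.09 for traces and 4.67 ± 0.27 for seeds (SD, n = 3 each). That difference was -1.33, or -1.32 without trace replicate 1. None of the 3 ratios overlapped between the classes. For SEP2 to SEP1 this followed from the levels, SEP1 being lower and SEP2 higher in every trace, and is no further support. Ratios of other gene pairs were not computed. Each two-sided exact permutation test gave the smallest possible p of 0.1, which was also the adjusted value over the 7 sums, shares and ratios. With 3 libraries against 3, such a test cannot decide whether the changes differed.

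Other MADS-box genes, of classes whose proteins are known to form complexes with SEPALLATA proteins, were taken as a list of 12. The list was drawn up with earlier results of these data known, so its counts are a description and lend no independent support. Above the filter were 7, of which 4 fell in traces, 0 rose and 3 were not called (limma, adjusted p under 0.05), where 5.1% of all tested genes fell and 7.18% rose. Their median log2 change was -1.06, beside -0.04 over all tested genes. FUL2, among those that fell, passed the filter through its seeds only, and a gene passing that way can only be lower in traces. With a filter of 5 RPKM, which leaves FUL2 out, 3 of 6 listed genes fell, beside 912 of all 14204 tested. The medians were then -0.9 and -0.09. The list spans the AGAMOUS, AP1/FUL, B and AGL6 classes and the B sisters. RefSeq held names for 6 of the 12, each on the chromosome in its identifier, and the other 6 are given by identifier.

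AG1 and AGL11 belong to the AGAMOUS clade, which specifies carpels and ovules. AG1 (VIT_12s0142g00360) had 7.94, 8.23 and 6.17 RPKM in traces. Its seeds had 65.2, 79.7 and 86.7 RPKM, and the log2 change was -3.21 (limma, adjusted p = 0.00142). AGL11 (VIT_18s0041g01880) had 47.5, 197.1 and 177.0 RPKM in traces and 271.7, 288.4 and 286.9 RPKM in seeds. Its log2 change of -1.24 was not called (limma, adjusted p = 0.161), while -0.59 without trace replicate 1 was (limma, adjusted p = 0.0373). Like SEP1, and unlike SEP2 and SEP3, both were lower in every trace than in every seed, as were 20.5% of tested genes.

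FUL2 (VIT_14s0083g01030), of the FRUITFULL lineage known for roles in fruit development, fell too. It drew 1, 1 and 2 reads in traces and 31, 63 and 31 reads in seeds, and its log2 change was -2.34 (limma, adjusted p = 0.0069). FUL2 passed the filter through its seeds only, and a gene passing that way can only be lower in traces. With no filter it was called too (limma, adjusted p = 0.00941). The size depended on the pseudocount at so few reads, at -3.0 with 0.5 RPKM added, -4.14 with 0.1 RPKM added and -4.31 by voom on recovered reads, and the call held in the 15 alternatives whose filter kept it (limma, adjusted p of 0.00299 to 0.0356). FUL2 is also the nearest row before SEP1 in identifier order, and the genes of these names are neighbours in the reference assembly. The remaining rows around SEP1 gave no call. VIT_14s0083g01020 and VIT_14s0083g01070 changed by 0.22 and 0.56 on the log2 scale without passing (limma, adjusted p = 0.449 and 0.219). VIT_14s0083g01060 was listed at 0.377 RPKM in trace replicate 1 and at 0 elsewhere.

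AP3, TM6 and PISTILLATA (PI) are B-class genes, known for petal and stamen identity. AP3 (VIT_18s0001g13460) ranged from 6.43 to 23.4 RPKM in traces and from 13.5 to 23.7 RPKM in seeds. Its log2 value of -0.65 was not called (limma, adjusted p = 0.368). TM6 (VIT_04s0023g02820) was under the filter, at 0.242 to 0.581 RPKM in traces and 0.695 to 6.56 RPKM in seeds. PI (VIT_18s0001g01760) had 2 reads over the traces and 0 over the seeds.

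Of the 6 given by identifier, VIT_10s0003g02070 (AGAMOUS class) fell from 108.8 ± 13 RPKM in seeds to 51.8 ± 7.46 RPKM in traces (SD, n = 3 each). The log2 change was -1.06 (limma, adjusted p = 0.014), and the call was lost without seed replicate 2 or 3 (limma, adjusted p = 0.0652 and 0.0679). VIT_15s0048g01270 fell from 77.2 ± 12.7 to 45.7 ± 6.54 RPKM (SD, n = 3 each). Its log2 change was -0.74 (limma, adjusted p = 0.0438), and the call was lost in 8 of 16 alternatives (0.0228 to 0.132). VIT_10s0042g00820, at -0.65, was not called (limma, adjusted p = 0.107). VIT_01s0011g00100, VIT_17s0000g04990 and VIT_16s0022g02330 were under the filter, with at most 0, 0.145 and 0.677 RPKM. Of the listed genes above the filter, all but AP3 were lower in every trace than in every seed, as for 20.5% of tested genes. For FUL2 this followed from the filter, which it passed through its seeds only. Among the 3 SEPALLATA and 12 listed genes, SEP2 was the one called higher in traces.

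**Figure D3:**
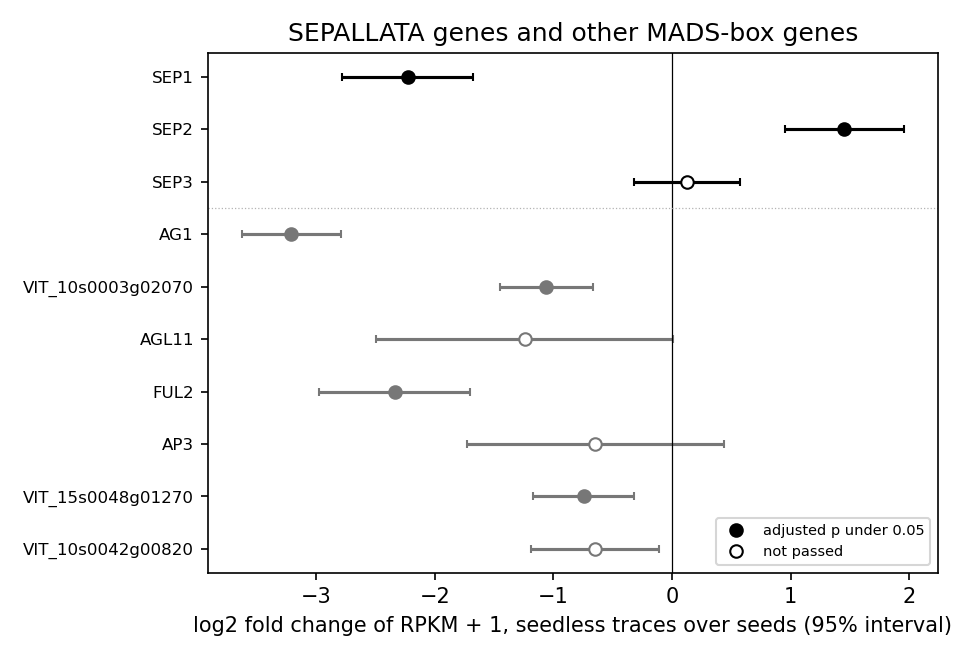
Log2 fold change of RPKM + 1, seedless traces over seeds, with limma's 95% interval, for the 3 SEPALLATA genes (black, top) and the 7 listed MADS-box genes above the filter (grey); filled points passed an adjusted p of 0.05. SEP2 at 1.45 is the only filled point to the right of 0.

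The rows next to SEP2 and SEP3 in identifier order gave no call. Beside SEP2, VIT_17s0000g04980 was listed at 0 in all libraries, and VIT_17s0000g04990 reached 0.145 RPKM in trace replicate 3 and 0 elsewhere. VIT_17s0000g05010 and VIT_17s0000g05020 had log2 values of 0.08 and 0.83 (limma, adjusted p = 0.79 and 0.257). Beside SEP3, VIT_01s0010g03880, VIT_01s0010g03890, VIT_01s0010g03910 and VIT_01s0010g03920 had log2 values of 0.22, 0.34, 0.91 and -0.11 (limma, adjusted p of 0.186 to 0.591). VIT_01s0010g03910 had 25.8 RPKM in trace replicate 1 and 5.62 to 9.82 RPKM in the other libraries.

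The summed SEP level was set beside that of the partners AG1 and AGL11 within each library. VIT_10s0003g02070, also listed in the AGAMOUS class, was not part of this partner sum. It had 60.3, 48.8 and 46.3 RPKM in traces and 93.95, 118.2 and 114.1 RPKM in seeds. Together AG1 and AGL11 had 55.4, 205 and 183 RPKM in traces and 337, 368 and 374 RPKM in seeds. The SEP sum was 3.39, 0.781 and 0.731 times this in traces and 0.568, 0.606 and 0.509 times in seeds. This ratio was higher in each trace than in each seed, and highest by far in trace replicate 1. Against AGL11 alone the classes overlapped. The SEP sum was then 3.96, 0.814 and 0.757 times AGL11 in traces and 0.704, 0.773 and 0.662 times in seeds. These ratios are a description and were not tested.

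**Figure D4:**
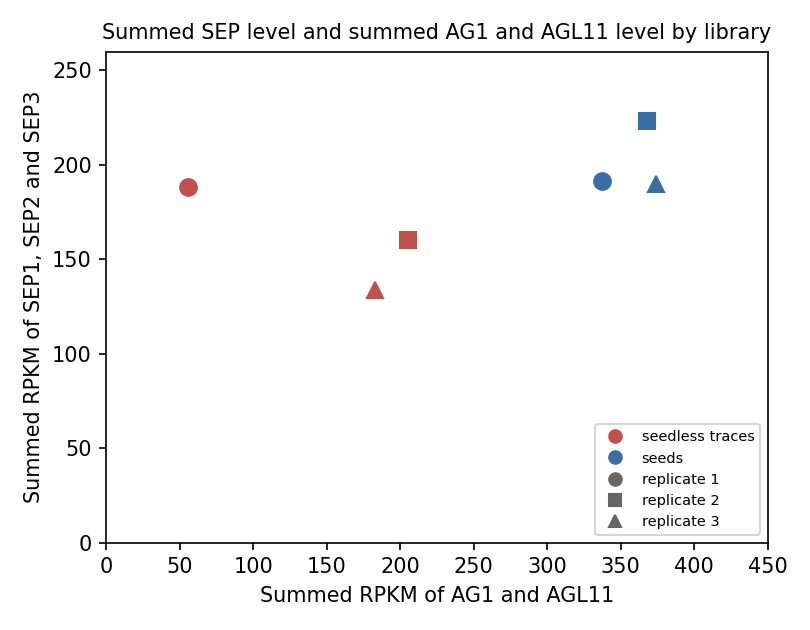
Summed RPKM of SEP1, SEP2 and SEP3 (vertical) against summed RPKM of AG1 and AGL11 (horizontal), 1 point per library, both axes linear from 0. The traces lie at 55.4 to 205 RPKM on the horizontal axis and the seeds at 337 to 374, while the summed SEP level is 133.9 to 188.1 RPKM in traces and 190.1 to 223.0 in seeds.

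Genes patterned most like each copy over the 6 libraries were found by the root mean square difference of log2(RPKM + 1), each gene centred on its own mean. For SEP1 they were VIT_07s0005g05780, VIT_13s0158g00100 and VIT_18s0001g05700, at differences of 0.147, 0.183 and 0.189. VIT_13s0158g00100 had 6.60, 10.9 and 11.3 RPKM in traces and 39.2, 39.2 and 38.9 RPKM in seeds. For SEP2 they were VIT_06s0061g00440, VIT_08s0007g00270 and VIT_04s0044g01460, at 0.0829, 0.0923 and 0.0994. VIT_06s0061g00440 had 124.9, 89.8 and 97.5 RPKM in traces and 38.4, 32.8 and 36.9 RPKM in seeds. For SEP3 they were VIT_03s0063g01340, VIT_06s0004g07830 and VIT_08s0040g01300, at 0.0389, 0.0488 and 0.0561. The likeness is a description over 6 libraries, and no source used here names these 9 identifiers.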

How the data were processed

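The authors deposited 1 table of RPKM values with a column for each of 6 libraries. Its identifiers belong to the 12X V1 set, per the file headers. TopHat2 2.0.13, HTSeq 0.5.4p5 and edgeR 2.2.6 appear in the submitters' processing notes with no role; genome build and strand setting are not given in the sources used here. Of 29548 rows, 12 with a doubled decimal point were left out. Classes follow the labelled phenotype, because titles call the seeded samples Seededless.

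Log2(RPKM + 1) was fitted with limma 3.58.1 in R 4.3.3 (eBayes with trend, two-sided, Benjamini-Hochberg over all tested genes, threshold 0.05). Tested were the 18749 genes reaching 1 RPKM in 3 or more libraries. This scale understates changes of low genes. Sums, shares and ratios were compared by exact permutation over libraries; other computing used Python 3.11.15. The fit and the read search were checked on simulated data. There the fit called 16 of 100 genes given a log2 change of 1. It called 52 of 100 given a log2 change of 2, and 0 of 18549 left unchanged. Few genes were changed in the simulation, all downward, beside 2303 calls in the data. Its rates need not hold for the real fit, where changes of these sizes may go uncalled. The read search recovered 2983 of 2995 genes, 2945 of them with the true reads.

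Whole reads were recovered from the RPKM steps for 23580 of 24536 genes above 0. They came to 93.5% to 104% of the totals behind the values and passed them in 3 of 6 libraries, so those totals were not plain read sums. By chi-square, reads of the 15 library pairs differed by 13 to 118 per degree of freedom, and no library was treated as a repeat.

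Members and lists were chosen with earlier results of these data known. Named genes are the 3 members, the 12 listed genes, 2 identifier neighbours on either side of each member and the 3 genes most like each. No identifier matched the reference table (ASM3070453v1), which served for names and gene order only. SEP2 has no named entry there, and symbols of listed genes and markers were recalled from the published grapevine catalogue. Alternatives changed the pseudocount, filter, scaling, variance model, library weights and replicate block, used voom on recovered reads, or left out a library.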

Additional observations from a re-analysis of the deposited data

How the results depend on the processing

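SEP1 kept its direction and its call in all 16 alternatives, at log2 changes of -2.40 to -2.0. SEP2 kept its direction, at 1.29 to 1.68, and was no longer called without seed replicate 2 or 3. Leaving out 1 library at a time moved SEP2 between 1.29 and 1.56 and SEP3 between -0.03 and 0.27, with the direction of SEP3 turned without trace replicate 1. The summed level lay between -54.3 and -27.2 RPKM with 1 library left out. Shares, ratios and the sum kept their direction in every alternative, and exact tests of 3 against 3 cannot pass 0.05. The 2303 calls over the whole table became 429 to 2909 with 1 library left out, and 3603 with library weights. The 1346 rises became 304 to 1670. The 957 falls became 116 to 1239, and 1639 with library weights. Of the listed MADS-box genes 4 fell, counting FUL2, which passed the filter through its seeds only, and 2 to 5 did with 1 library left out. The cause was not tested. The replicate block left 1714 calls, SEP1 and SEP2 among them (-2.23 and 1.45; limma, adjusted p = 0.024 and 0.0348). Libraries of the same number are different hybrids. Their deviations from the class means correlated at 0.07, 0.18 and 0.10, and by deviation every library was most like the one of its own number. Deviations inside a class sum to 0, so these matches are tied to each other. They are a weak hint at most, which the labels do not back. Of 111 comparisons of listed genes with an alternative, 99 gave the same direction and call, 10 ended a call and 2 made one. Among the SEPALLATA genes the fewest reads were those of SEP2 in seeds, at 36 to 38 per library. FUL2 in traces rested on 1 or 2 reads per library.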
